A study of Mus musculus with 6 samples.

Results

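The neurotrophins are secreted growth factors of the nervous system, and the genes described here are those of 2 of these factors and 4 of their receptors. The members were the rows of the deposited count table named Bdnf, Ntf3, Ntrk2, Ntrk3, Ngfr and Sort1, which are 6 of the 55367 genes in the table. All 6 members were found, had counts in every library and passed the filter on low counts, as did 16976 genes in all. RNA-seq was carried out on cells from the cortex of C57BL/6J mouse pups at postnatal day 1 (P1), kept for 2 days in vitro. Each genotype, WT and Fmr1-KO, had 3 libraries, and the labels give no treatment of either. The Fmr1-KO mouse carries the disruption in every cell and lacks FMRP, an RNA-binding protein whose loss causes fragile X syndrome. According to the methods of the study, the tissue was dissociated with papain and astrocytes carrying the ACSA2 antigen and myelin were removed before plating. The study describes these RNA-seq samples as independently derived triplicates. Neither it nor the labels say whether libraries of a genotype came from separate litters or cultures. P-values therefore measure the spread between these samples, which may not be that between litters.

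Each neurotrophin is made as a longer precursor, the proneurotrophin, which is cut by proteases to give the mature factor. Mature factors act through Trk receptor tyrosine kinases: BDNF binds TrkB, the product of Ntrk2, and NT-3 binds mainly TrkC, the product of Ntrk3. The p75 receptor, encoded by Ngfr, binds all neurotrophins, and together with sortilin, encoded by Sort1, it binds the proneurotrophins. In the developing cortex these factors are known for roles in neuronal survival, dendrite growth and synapse formation, and Bdnf transcription follows neuronal activity.

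The 6 members lie on different chromosomes, and all are annotated as protein-coding in GENCODE M21 on GRCm38. Bdnf lies on the plus strand of chromosome 2 from 109674700 to 109727007, with 11 annotated transcripts that begin at several alternative first exons. Ntf3 lies on the minus strand of chromosome 6 from 126101412 to 126166910. Ntrk2 spans 58806569 to 59133970 on the plus strand of chromosome 13, and Ntrk3 spans 78175959 to 78738012 on the minus strand of chromosome 7. Ngfr, the only member with 1 annotated transcript, lies on the minus strand of chromosome 11 from 95568818 to 95587735. Sort1 lies on the plus strand of chromosome 3 from 108284082 to 108361511. Reads were assigned to exons by gene name, so the counts pool the alternative first exons of Bdnf, and pool full-length Ntrk2 and Ntrk3 transcripts with those for truncated receptors without a kinase. Antisense genes overlap Bdnf, Ntrk2, Ntrk3 and Sort1, but the counting used strand. Of these antisense genes, Gm9885 at Ntrk3 had 42 to 75 counts per library, and the others had 0 to 3.

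The promoter regions of the members whose levels differed between genotypes are shown for Bdnf and Ntrk2. RefSeq windows on GRCm38.p6, running from 250 bases before to 50 bases after a start site, were matched for 4 of the 6 members (Bdnf, Ntf3, Ngfr and Ntrk2), in 11 windows. For Bdnf, the 5′-most window and the only window with a match to a cAMP-response-element-like motif are given, up to the base before the start site. That motif (CACGTCA, or TGACGTG on the other strand) is printed in capitals and begins 37 bases before the start site of transcript Bdnf-209. It was looked for after the windows had been seen. The sequences read 5′ to 3′ on the plus strand, at chr2:109674450-109674699, chr2:109692186-109692435 and chr13:58806319-58806568.
Bdnf-201 upstream: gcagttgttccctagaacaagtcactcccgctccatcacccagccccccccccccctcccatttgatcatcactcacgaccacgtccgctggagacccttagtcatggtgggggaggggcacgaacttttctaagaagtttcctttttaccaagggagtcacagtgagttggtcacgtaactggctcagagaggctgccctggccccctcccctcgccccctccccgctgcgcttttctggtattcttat
Bdnf-209 upstream: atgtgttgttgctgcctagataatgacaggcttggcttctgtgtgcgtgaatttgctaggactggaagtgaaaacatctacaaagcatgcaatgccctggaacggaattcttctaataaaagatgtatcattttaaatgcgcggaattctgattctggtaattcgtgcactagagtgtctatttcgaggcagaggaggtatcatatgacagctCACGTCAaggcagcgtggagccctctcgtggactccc
Ntrk2-207 upstream: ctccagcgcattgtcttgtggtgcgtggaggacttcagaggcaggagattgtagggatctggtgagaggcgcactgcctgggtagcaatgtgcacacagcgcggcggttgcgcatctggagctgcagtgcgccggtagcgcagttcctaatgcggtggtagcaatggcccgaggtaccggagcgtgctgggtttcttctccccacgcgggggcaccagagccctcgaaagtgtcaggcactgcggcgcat

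The full cAMP response element (TGACGTCA) was found in 0 of the 11 member windows on either strand and in 1.79% of 32851 windows of all genes. The CREB family of transcription factors, which takes part in the activity-dependent transcription of Bdnf, binds this element. The shorter form CACGTCA was in 1 member window and in 2.01% of all windows. The same stretch of the Bdnf-209 window holds the only match in a member window to the core CGTCA or its reverse complement TGACG, which was in 20.8% of all windows. An E-box (CACGTG) was in 1 member window, that of Ntf3, and in 7.15% of all. The Ntrk2 window held 23 CpG dinucleotides in its 300 bases, against 11 for Bdnf-201, 12 for Bdnf-209 and a median of 7 over all windows. The Ngfr window also held 23, and those of Ntf3 held 17 and 12. The GC content of the Ntrk2 window was 61.3%, against 71.7% for Ngfr, 57.3% for Bdnf-201, 48.7% for Bdnf-209 and a median of 52.7%. A match is a run of letters and no measure of binding.

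Total counts ran from 30348556 to 35126207 per library. The chi-square between replicates, divided by its degrees of freedom, was 2.92 in WT and 3.17 in Fmr1-KO, above the value near 1 that counting alone gives. The targeted gene, Fmr1, had 4113, 3710 and 3656 counts in WT and 1761, 1879 and 1972 counts in Fmr1-KO, in the direction that the labels require. Its level fell from 113.4 ± 4.50 to 57.4 ± 3.67 CPM (counts scaled to a total of 1000000; SD, n = 3 each), with a log2 fold-change of -0.98 (SE 0.04; adjusted P 2.25e-13 by edgeR's quasi-likelihood test).

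Relative to WT, the Fmr1-KO libraries had less Bdnf and Ntrk3 and more Ntrk2, while Ntf3, Ngfr and Sort1 did not pass the threshold of an adjusted P under 0.05 by edgeR. Bdnf fell to 73.4% and Ntrk3 to 91.2% of the WT mean, and Ntrk2 rose to 112.4%. Thus 3 of 6 members (50%) were called, 2 lower and 1 higher. Among all 16976 genes tested, 42.6% were called, 21.9% lower and 20.7% higher. The CPM ranges of the genotypes did not overlap for 4 members (66.7%), against 51.7% of all genes tested. Both shares of the members are therefore read against a background in which such differences were common, and with 6 members they are not set apart from it here. The median log2 fold-change of the 6 members was -0.05, against 0.01 for all genes tested.

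**Figure D1:**
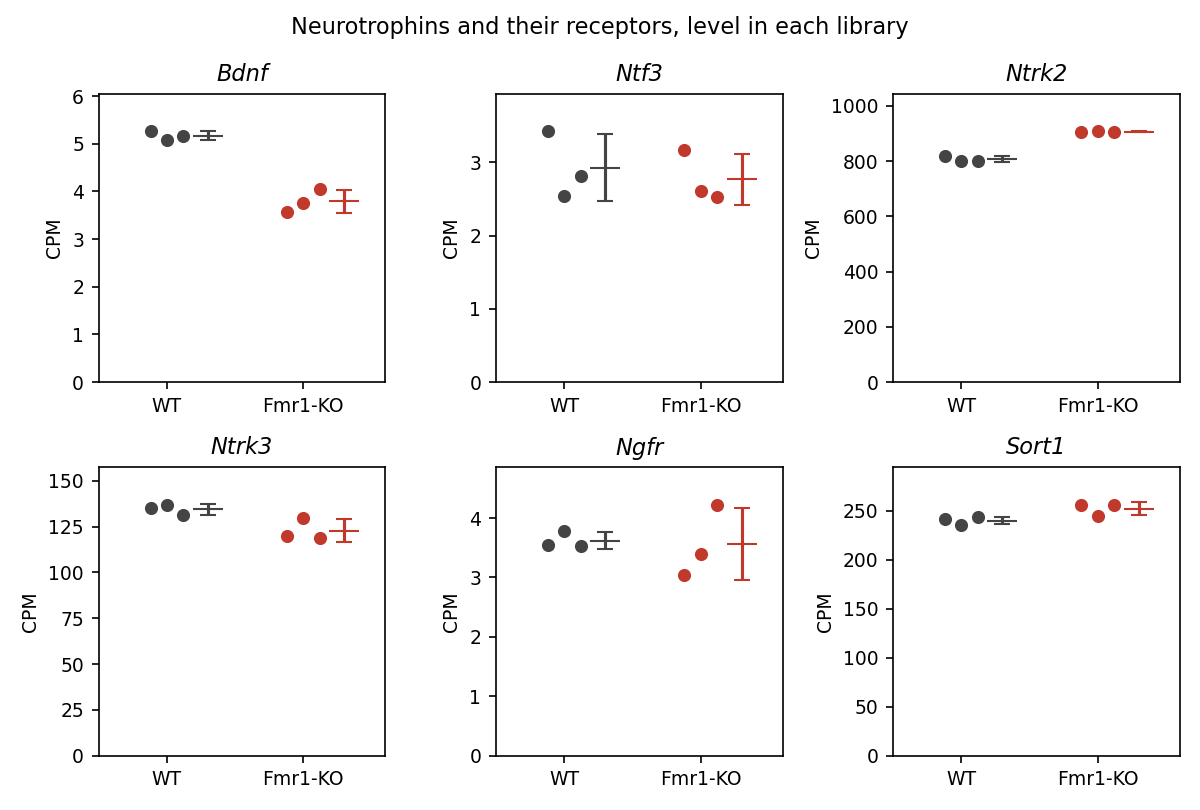
Level of each member in every library, in CPM scaled by the trimmed mean of M-values (y axes differ between panels), for WT and Fmr1-KO; points are libraries and horizontal marks are means. Bdnf and Ntrk3 are lower and Ntrk2 is higher in all 3 Fmr1-KO libraries, Sort1 is slightly higher in all 3, and the genotypes overlap for Ntf3 and Ngfr.

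Among the ligands, Bdnf had few counts in every library. Its counts were 183, 168 and 172 in WT and 116, 115 and 141 in Fmr1-KO. Scaled for library size these were 5.27, 5.08 and 5.15 CPM in WT, and 3.57, 3.76 and 4.05 CPM in Fmr1-KO. Every Fmr1-KO library lay below every WT library. The mean fell from 5.17 ± 0.0925 to 3.79 ± 0.245 CPM (SD, n = 3 each), a log2 fold-change of -0.44 (SE 0.11, 95% interval -0.66 to -0.22; adjusted P 0.00178 by edgeR). The change in Bdnf was the largest among the members in size, and 16.9% of all genes tested had a larger one in either direction. The spread between the WT libraries of Bdnf, a coefficient of variation (CV) of 1.79%, was below the 8.19% that counting alone gives at this depth, so that spread understates the error of a single library. Bdnf did not pass the threshold when a fold change above 1.2 was required (adjusted P 0.0975 by edgeR's glmTreat).

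Ntf3, which encodes NT-3, had 119, 84 and 94 counts in WT and 103, 80 and 88 counts in Fmr1-KO. Its levels were 3.42, 2.54 and 2.82 CPM in WT and 3.17, 2.61 and 2.53 CPM in Fmr1-KO. The genotypes overlapped, and replicate 1 had the highest level in each of them. The means were 2.93 ± 0.452 and 2.77 ± 0.347 CPM (SD, n = 3 each), with a log2 fold-change of -0.08 (SE 0.15; adjusted P 0.686 by edgeR). The 95% interval ran from -0.39 to 0.22, which takes in the fold-change measured for Ntrk2 and that for Ntrk3. At this depth a change of that size in Ntf3 was not detectable. Without WT replicate 1 its log2 fold-change was 0.05, so the direction for Ntf3 rests on 1 library.

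Ntrk2, the gene of the BDNF receptor, had the most counts of the members. There were 28499, 26483 and 26729 counts in WT and 29445, 27812 and 31563 counts in Fmr1-KO. The levels were 819.9, 801.0 and 801.0 CPM in WT and 905.5, 908.5 and 907.2 CPM in Fmr1-KO. All Fmr1-KO libraries lay above all WT libraries, and they lay closer together than the WT libraries did. The mean rose from 807.3 ± 10.9 to 907.1 ± 1.50 CPM (SD, n = 3 each), with a log2 fold-change of 0.17 (SE 0.03, 95% interval 0.11 to 0.22; adjusted P 2.89e-05 by edgeR). This was a small change, and 47.0% of all genes tested had a larger one. The CV of the Fmr1-KO libraries for Ntrk2 was 0.165%, below the counting CV of 0.593%, against 1.36% in WT.

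Ntrk3 moved the other way. Its counts were 4704, 4529 and 4381 in WT and 3890, 3974 and 4131 in Fmr1-KO. The levels were 135.3, 137.0 and 131.3 CPM in WT and 119.6, 129.8 and 118.7 CPM in Fmr1-KO. The highest Fmr1-KO library, replicate 2, lay just below the lowest WT library, replicate 3. The mean fell from 134.5 ± 2.94 to 122.7 ± 6.16 CPM (SD, n = 3 each), a log2 fold-change of -0.13 (SE 0.04, 95% interval -0.21 to -0.06; adjusted P 0.00563 by edgeR). A larger change was found for 54.9% of all genes tested. Requiring a fold change above 1.2 left neither Trk receptor past the threshold (adjusted P 1 for each by glmTreat).

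Ngfr, the gene of the p75 receptor, was close to the ligands in counts. It had 123, 125 and 118 counts in WT and 99, 104 and 147 counts in Fmr1-KO, or 3.54, 3.78 and 3.54 CPM and 3.04, 3.40 and 4.23 CPM. The Fmr1-KO libraries held both the lowest and the highest values, so the ranges overlapped. The means were 3.62 ± 0.141 and 3.56 ± 0.606 CPM (SD, n = 3 each), with a log2 fold-change of -0.02 (SE 0.13, 95% interval -0.29 to 0.25; adjusted P 0.923 by edgeR). The spread for Ngfr was wider in Fmr1-KO, with a CV of 17.0%, against 3.88% in WT and a counting CV of 9.15%. Leaving out single libraries moved the log2 fold-change of Ngfr from -0.17, without Fmr1-KO replicate 3, to 0.08, without Fmr1-KO replicate 1.

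Sort1, whose product also sorts proBDNF inside the cell, had 8382, 7784 and 8109 counts in WT and 8327, 7473 and 8896 counts in Fmr1-KO. Its levels were 241.2, 235.4 and 243.0 CPM in WT and 256.1, 244.1 and 255.7 CPM in Fmr1-KO. All Fmr1-KO libraries lay above all WT libraries, though replicate 2 of Fmr1-KO was close to WT replicate 3. The means were 239.9 ± 3.94 and 252.0 ± 6.80 CPM (SD, n = 3 each), a log2 fold-change of 0.07 (SE 0.03, 95% interval 0.01 to 0.13). The adjusted P of 0.0667 by edgeR missed the threshold. It was 0.0173 without Fmr1-KO replicate 2, 0.0353 with upper-quartile scaling and 0.0123 with library totals alone. Sort1 was the only member on the list of nonsense-mediated mRNA decay (NMD) targets that the study made in a neuroblastoma line. NMD degrades particular mRNAs during translation, and its targets were the question of the study.

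**Figure D2:**
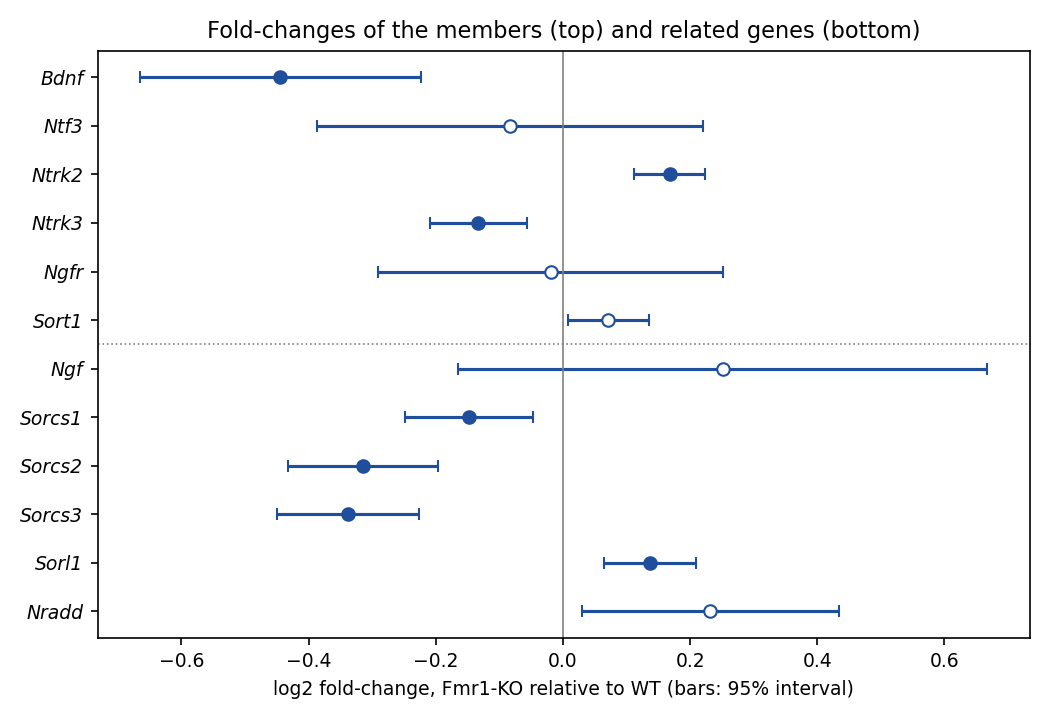
Log2 fold-change of Fmr1-KO relative to WT by edgeR for the members (top) and the tested other family genes (bottom), with 95% confidence intervals. Points are filled where the adjusted P by edgeR was under 0.05, and a negative value means lower in Fmr1-KO. Bdnf lies at -0.44, Ntrk3 at -0.13 and Ntrk2 at 0.17, while the intervals of Ntf3 and Ngfr span 0.

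Levels of different genes can be compared only per length, so CPM was divided by the summed length of the exons of each gene. In WT, the order from the highest was Ntrk2 at 41.8 ± 0.568, Sort1 at 31.7 ± 0.521 and Ntrk3 at 4.46 ± 0.0973 CPM per kilobase (SD, n = 3). Ntf3 at 1.71 ± 0.264, Ngfr at 1.05 ± 0.0408 and Bdnf at 0.831 ± 0.0149 CPM per kilobase followed. The receptors Ntrk2 and Sort1 were thus abundant and the ligands were near the bottom of the order. For comparison, the neuronal tubulin gene Tubb3 had 585 CPM per kilobase in WT and the neuronal microtubule gene Map2 had 72.0. In Fmr1-KO the order of the members by summed exons was the same, with Ntrk2 at 47.0 ± 0.0778, Sort1 at 33.3 ± 0.898 and Ntrk3 at 4.07 ± 0.204 CPM per kilobase (SD, n = 3). Ntf3 stood at 1.62 ± 0.202, Ngfr at 1.03 ± 0.176 and Bdnf at 0.610 ± 0.0393 CPM per kilobase. The ranges of neighbours in this order did not overlap within either genotype. The closest neighbours were Ngfr and Bdnf, with WT ranges of 1.03 to 1.10 and 0.817 to 0.847 CPM per kilobase. With the length of the longest transcript that order turned in WT, with 1.21 CPM per kilobase for Bdnf and 1.05 for Ngfr, but not in Fmr1-KO, with 0.889 for Bdnf and 1.03 for Ngfr. The summed exons came to 19292 bases for Ntrk2 and 30170 for Ntrk3, whose longest transcripts have 8744 and 19703 bases, and to 3446 for Ngfr, with its single transcript, so levels per length depend on which transcripts the cells make.

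**Figure D3:**
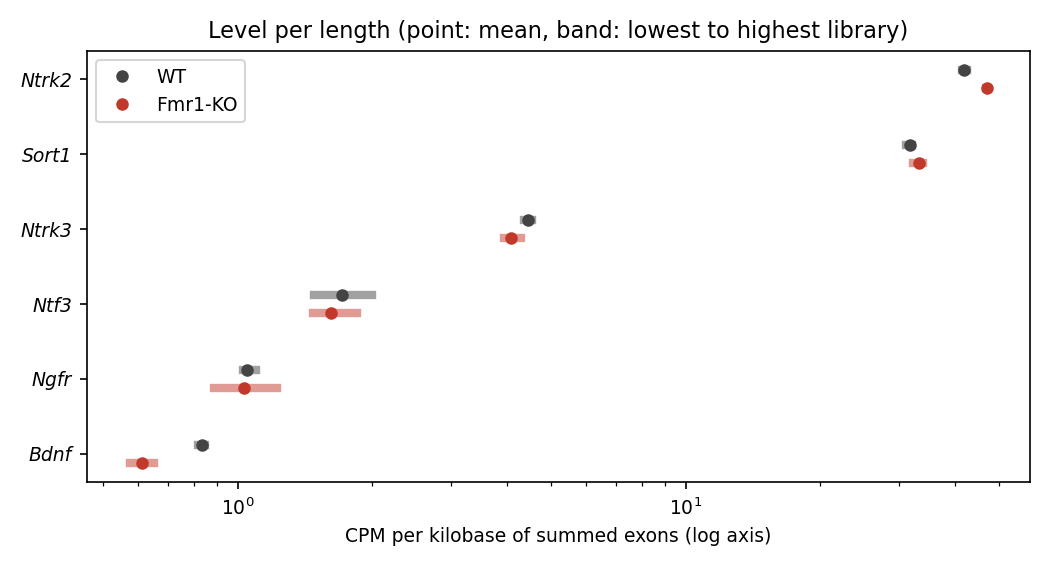
Level of each member per kilobase of summed exons (CPM per kilobase, log axis) in WT and Fmr1-KO. Points are means, and bands run from the lowest to the highest library. Ntrk2 and Sort1 lie above 30 CPM per kilobase and Bdnf lies below 1 in every library.

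Ratios of members within a library do not depend on the scaling between libraries. The log2 ratio of Ntrk2 to Ntrk3 counts was 2.60, 2.55 and 2.61 in WT and 2.92, 2.81 and 2.93 in Fmr1-KO. The ratio was higher in all Fmr1-KO libraries, by 0.30 on the log2 scale. A 2-sided exact permutation test gave P = 0.1, the smallest value that 3 against 3 libraries allow, and 0.4 after Benjamini-Hochberg adjustment over the 4 ratios computed. The log2 ratio of Bdnf to Ntf3 was 0.62, 1.00 and 0.87 in WT and 0.17, 0.52 and 0.68 in Fmr1-KO. These ranges overlapped, with a difference of -0.37 (exact permutation P = 0.2, adjusted 0.4). The ratio of Ngfr to Sort1 differed by -0.11 on the log2 scale (exact permutation P = 0.5, adjusted 0.5) and that of Ngfr to Ntrk2 by -0.21 (exact permutation P = 0.3, adjusted 0.4). Leaving out Fmr1-KO replicate 1 moved the Bdnf to Ntf3 difference to -0.23, that of Ngfr to Ntrk2 to -0.10 and that of Ngfr to Sort1 to 0.01. Leaving out Fmr1-KO replicate 3 moved that of Ngfr to Ntrk2 to -0.34 and that of Ngfr to Sort1 to -0.23.

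**Figure D4:**
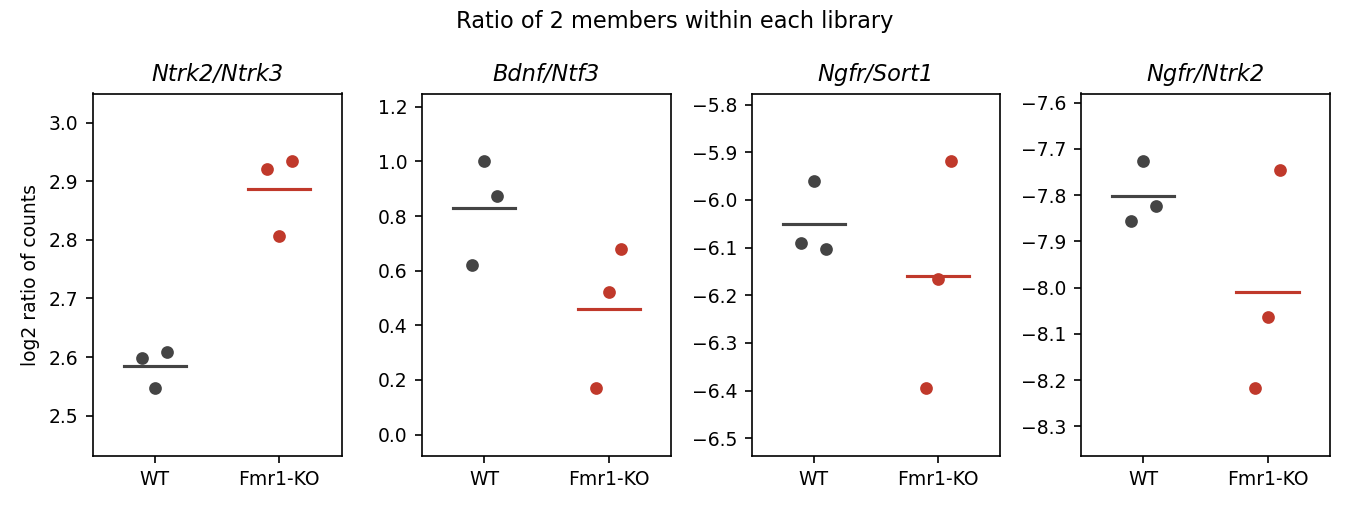
Log2 ratio of the counts of 2 members within each library, for WT and Fmr1-KO; points are libraries and horizontal marks are means. The Ntrk2 to Ntrk3 ratio is higher in the 3 Fmr1-KO libraries than in the 3 WT libraries.

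The genes with profiles most like those of the members were taken as the nearest in log2 CPM, centred on the mean of each gene, over the 6 libraries. For Bdnf the nearest was Gpr155, with a root mean square difference of 0.0139 log2 units. For Ntrk2 they were Ttc28 (0.0092) and Eif2s3x (0.00943), and for Ntrk3 Tmf1 (0.0103) and Lmf1 (0.0174). Sort1 was nearest to Sf1 (0.0101) and Chid1 (0.0122). The profiles of Ntf3 and Ngfr had no neighbour as near: Wscd2 (0.0697) and Matn2 (0.0698) for Ntf3, and Mterf4 (0.0786) and Vamp4 (0.0824) for Ngfr. With 6 libraries and 10763 genes of at least 10 CPM to choose from, near profiles are a description of these libraries.

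A list of 8 other genes of the family included Ntf5, the sortilin relatives Sorcs1, Sorcs2, Sorcs3 and Sorl1, and the p75-like Nradd. Of the 8 genes 6 were tested, of which 3 were lower, 1 was higher and 2 did not pass the threshold. Sorcs2, a receptor that partners p75 in proneurotrophin binding, fell from 39.6 ± 1.94 to 31.8 ± 2.78 CPM (SD, n = 3 each; log2 fold-change -0.31, adjusted P 0.000116 by edgeR). Sorcs3 fell from 26.5 ± 0.732 to 20.9 ± 0.564 CPM (log2 fold-change -0.34, edgeR adjusted P 2.59e-05), and Sorcs1 from 33.6 ± 1.26 to 30.3 ± 0.613 CPM (log2 fold-change -0.15, adjusted P 0.0171). Without WT replicate 1, Fmr1-KO replicate 1 or Fmr1-KO replicate 3, Sorcs1 missed the threshold, with adjusted P of 0.0931, 0.052 and 0.06045. Sorl1, which takes part in endosomal sorting, rose from 239.4 ± 10.3 to 263.2 ± 8.84 CPM (log2 fold-change 0.14, adjusted P 0.00297 by edgeR). The 3 SorCS genes that fell and Sort1 and Sorl1, which had higher means, all encode receptors with a VPS10P domain. Nradd had a log2 fold-change of 0.23 (SE 0.10; adjusted P 0.0596). It passed the threshold with upper-quartile factors (adjusted P 0.0482), library totals (0.0345) and without WT replicate 1 (0.0319), and stood at 0.15 without WT replicate 3. Ntf5, another ligand of TrkB, had 4, 7 and 5 counts in WT and 6, 5 and 11 in Fmr1-KO, too few for the test.

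Lists of genes of the neurotrophin pathway were then counted in the same way. Over 7 lists with 112 tested genes, each counted once, 45 were lower (40.2%) and 18 were higher (16.1%). The background was 21.9% lower and 20.7% higher among all genes tested. The median log2 fold-change was -0.08, against 0.01 for all genes tested. The share of lower genes was above that background in each of the 7 lists, and was largest among the BDNF-responsive transcripts (12 of 18). For the regulators of Bdnf transcription (4 of 17) and the p75 partners (4 of 15), the share was close to that background. These shares are a description, since the lists were chosen with earlier results of these data known.

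Upstream of the ligands, the list of regulators of Bdnf transcription had 4 lower and 3 higher genes of 17, with a median log2 fold-change of 0.02. Mef2c, a transcription factor activated by calcium, fell from 446.7 ± 5.39 to 121.2 ± 4.89 CPM (SD, n = 3 each; log2 fold-change -1.88, adjusted P 1.36e-19 by edgeR). Camk4, a calcium-dependent kinase that phosphorylates CREB, fell from 17.3 to 11.0 CPM (log2 fold-change -0.66, adjusted P 9.70e-08). Tcf4 rose from 742.8 to 802.9 CPM (log2 fold-change 0.11, adjusted P 0.00352). Creb1, which encodes CREB itself, rose from 98.2 to 109.6 CPM (log2 fold-change 0.16, adjusted P 0.00967), though its CPM ranges overlapped. Creb1 missed the threshold when replicate 1 of either genotype or replicate 3 of WT was left out, with adjusted P between 0.0503 and 0.0790.

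In the list of neurotrophin processing and release, 8 of 17 genes were lower and 3 were higher, with a median log2 fold-change of -0.17. Scg2, a granin of secretory granules, fell from 50.2 ± 3.26 to 19.6 ± 2.30 CPM (SD, n = 3 each; log2 fold-change -1.36, adjusted P 8.14e-13 by edgeR). Pcsk2, a prohormone convertase, fell from 34.4 to 18.1 CPM (log2 fold-change -0.92, adjusted P 2.83e-11). Cpe, which encodes a carboxypeptidase and sorting receptor for proBDNF, rose from 769.3 ± 7.56 to 953.6 ± 11.7 CPM (log2 fold-change 0.31, adjusted P 6.52e-09 by edgeR). Furin, a protease that cuts proneurotrophins, did not pass the threshold (log2 fold-change -0.06, adjusted P 0.299 by edgeR).

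Downstream of the receptors, among 18 Trk receptor adaptors, 7 were lower and 3 were higher, with a median log2 fold-change of -0.08. The Shc family of docking proteins was divided: Shc3 fell from 26.5 to 19.8 CPM (log2 fold-change -0.42) and Shc2 from 35.3 to 29.9 CPM (-0.24), while Shc1 rose from 19.8 to 23.4 CPM (0.24). Their adjusted P by edgeR were 1.24e-05, 0.000325 and 0.0059. Plcg1, a phospholipase recruited by Trk receptors, rose from 222.2 to 242.6 CPM (log2 fold-change 0.13). Among 22 genes of the MAPK and PI3K arm, 7 were lower and 4 were higher, with a median of -0.03. Mapk3, which encodes ERK1, fell from 119.3 to 87.6 CPM (log2 fold-change -0.45, edgeR adjusted P 4.95e-10). Akt2 rose from 91.7 to 107.7 CPM (0.23) and Rps6ka2 from 52.6 to 59.3 CPM (0.17), both past the threshold.

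Among 15 partners of the p75 receptor, 4 were lower and 2 were higher, with a median log2 fold-change of 0.00. Lingo1, a co-receptor of p75, fell from 97.1 to 77.6 CPM (log2 fold-change -0.32, edgeR adjusted P 6.01e-07), and Ripk2, a kinase that binds p75, fell from 7.87 to 5.99 CPM (-0.39, adjusted P 0.00253). Ndn rose from 102.2 to 131.1 CPM (0.36, adjusted P 8.45e-08), and Irak1 from 72.9 to 79.1 CPM (0.12, adjusted P 0.0233 by edgeR). Irak1 missed the threshold when replicate 1 or replicate 2 of either genotype was left out, with adjusted P between 0.0646 and 0.122.

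Of 18 transcripts known to rise when TrkB is activated, 12 were lower and 2 were higher, with a median log2 fold-change of -0.41. Sst, the gene of the neuropeptide somatostatin, fell from 43.6 ± 3.04 to 7.53 ± 0.612 CPM (SD, n = 3 each; log2 fold-change -2.53, adjusted P 2.32e-16 by edgeR). Sst is also a marker of a class of interneurons. So is Npy, another of these transcripts, which fell from 48.4 to 8.92 CPM per kilobase of summed exons. Cartpt, another neuropeptide gene and among the 12 lower, had 16, 10 and 23 counts in WT and 3, 0 and 2 in Fmr1-KO. Its log2 fold-change of -3.15 rests on these few counts. The 2 genes that rose were Egr1, from 28.6 to 36.8 CPM (log2 fold-change 0.36, edgeR adjusted P 0.000642), and Arc, from 4.86 to 6.16 CPM (0.34, adjusted P 0.0209). Both are immediate early genes, and the other immediate early genes of the list did not rise: Egr3 fell from 9.07 to 3.64 CPM (log2 fold-change -1.31) and Egr2 from 3.13 to 1.91 CPM (-0.71), while Fos stood at -0.17 on the log2 scale (edgeR adjusted P 0.0852). Arc missed the threshold when replicate 1 of either genotype or replicate 3 of WT was left out, with adjusted P between 0.0655 and 0.175, and by DESeq2 with 0.06653. The median of -0.41 for this list stands beside -0.64 for the neuronal markers given below. Medians of the cell-type marker lists ran from -0.89 (subplate and Cajal-Retzius) to 0.69 (proliferation).

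**Figure D5:**
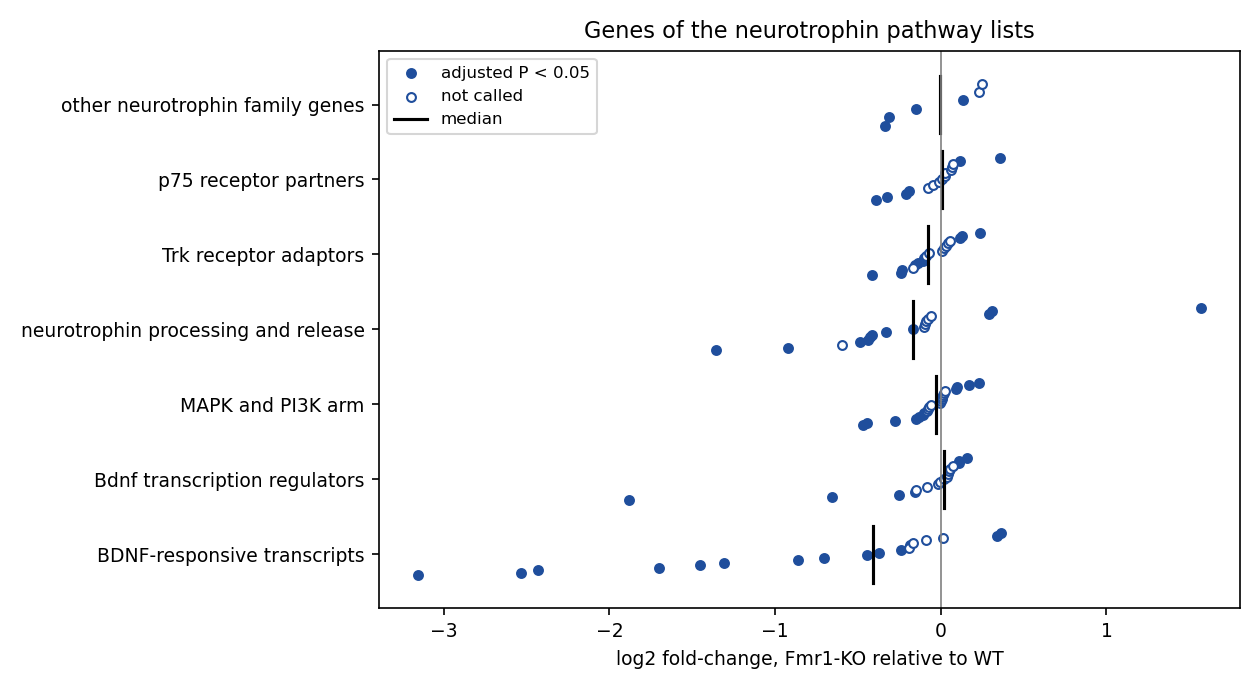
Log2 fold-change of Fmr1-KO relative to WT by edgeR for the tested genes of 7 lists of the neurotrophin pathway; each point is a gene, filled where the adjusted P was under 0.05, and vertical bars are medians. The median of the BDNF-responsive transcripts is -0.41, and those of the other pathway lists lie between -0.17 and 0.02. The median of the neuronal markers, not drawn here, was -0.64.

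The members are made by different cells of the cortex: neurons express Ntrk2 and Ntrk3, astrocytes carry truncated TrkB, and mural and meningeal cells are known to express Ngfr. Markers of the cells that the culture could hold also differed between genotypes. Their counts stand beside 21.9% lower and 20.7% higher among all genes tested. In bulk samples, fewer cells of a type and less RNA per cell cannot be told apart. Of 10 neuronal markers 9 were lower and 1 was higher, with a summed level of 4888 to 5018 CPM in the WT libraries and 4225 to 4422 CPM in Fmr1-KO. Their median log2 fold-change was -0.64, so the sum shows less of a fall than most single markers. The largest fall was that of Nefl, from 9.17 to 2.45 CPM per kilobase of summed exons. Dcx, the marker that rose, went from 99.0 to 104.8. Of 10 excitatory neuron markers 4 were lower and 5 higher, and of 10 markers of GABAergic interneurons 6 were lower and 4 higher. The sums of both overlapped between genotypes. They were 877.1 to 888 CPM in WT and 859.9 to 892.5 CPM in Fmr1-KO for excitatory neurons. For GABAergic interneurons they were 798.5 to 831 CPM in WT and 824 to 910 CPM in Fmr1-KO. Within these sums single markers moved in opposite directions. Slc17a7 fell from 3.75 to 0.685 and Fezf2 rose from 6.70 to 8.17 CPM per kilobase of summed exons. In the same unit Sst fell from 60.5 to 10.4 and Dlx2 rose from 29.6 to 44.6. Subplate and Cajal-Retzius markers were lower in 6 and higher in 2 of 10, with sums of 290.8 to 319.9 and 170.8 to 190.8 CPM. Astrocyte markers were lower in 6 and higher in 2 of 10, with sums of 5199 to 5316 CPM in WT and 4579 to 4957 CPM in Fmr1-KO. The 2 astrocyte markers that rose were Gja1, from 251.2 to 309.0 CPM (log2 fold-change 0.30), and Aldoc, from 314.1 to 343.2 CPM (0.13). Among the 6 that fell, Aqp4 went from 84.1 to 51.1 and S100b from 23.4 to 12.2 CPM per kilobase of summed exons.

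Gfap, a defining astrocyte gene, stood at 2649 ± 67.0 CPM in WT and 2297 ± 158 CPM in Fmr1-KO (SD, n = 3), although astrocytes had been depleted. Oligodendrocyte markers were lower in 10 of 10, with sums of 2346 to 2551 and 1344 to 1448 CPM, and microglial markers in 9 of 10, with sums of 220.3 to 242.1 and 122.9 to 140.0 CPM. Endothelial and mural markers were lower in 2 and higher in 4 of 8 tested genes, and meningeal markers were lower in 5 and higher in 1 of 10. The endothelial and mural markers summed to 248.1 to 272.9 CPM in WT and 411.6 to 430.6 CPM in Fmr1-KO, of which most was Acta2, a gene of contractile cells, with means of 176.1 and 322.0 CPM. The mural marker Rgs5 and the endothelial marker Cdh5 were the 2 that fell, from 22.1 to 11.8 and from 2.54 to 1.61 CPM. Proliferation markers were higher in 10 of 10, with sums of 510.8 to 554.7 and 883.4 to 955.9 CPM, and progenitor markers were lower in 1 and higher in 5 of 10, with sums of 2832 to 2847 and 3191 to 3251 CPM. No marker was at 0 in all libraries. The part of these markers in the results for Bdnf, Ntrk2, Ntrk3 and the pathway lists was not tested.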

How the data were processed

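RNA was measured in 3 WT and 3 Fmr1-KO libraries. The authors deposited raw counts per gene name. Per the labels, the tools were bcl2fastq 2.19.0, STAR 2.7.6a and featureCounts of Subread 2.0.1. The methods of the study name other versions of bcl2fastq and Subread, and describe alignment to GRCm38 and reverse-stranded counting over exons. Such counts do not separate isoforms, and reads of near-identical copies are not resolved.

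Counts were filtered with filterByExpr, scaled by TMM and fitted with genotype alone by edgeR 4.0.16 (R 4.3.3; glmQLFit, glmQLFTest, 2-sided). P-values were adjusted by Benjamini-Hochberg over all 16976 genes tested and called under 0.05. SE is the log2 fold-change divided by the square root of F. CPM are TMM-scaled. With totals of at least 30348556 counts, precision for Bdnf, Ntf3 and Ngfr was still limited in part by their few counts. For Ngfr the spread between the Fmr1-KO libraries was also wider than counting alone gives. Replicate numbers were not taken to pair the samples, and the labels do not say whether they mark a shared preparation. Exon lengths came from GENCODE M21, an earlier release than the authors used. The script was tested on simulated data. Alternatives were DESeq2 1.42.0, RLE, upper-quartile factors, library totals, no filter, a filter at a mean of at least 10 counts and 5 CPM (the stricter filter), the replicate number as a block, removal of the 20 most abundant genes, a fold change above 1.2, and leaving out each library.

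The members and lists were chosen with earlier results of these data known. Named genes were Fmr1, the members, the other family genes, the 2 largest called changes in each direction of each other list, and the 2 nearest profiles of each member (genes averaging 10 CPM or more). Furin, Map2, Tubb3, Gfap, Gja1, Aldoc, Acta2, Rgs5, Cdh5, Egr2, Egr3, Fos and Npy were named in addition, after their values were seen. So were Nefl, Dcx, Slc17a7, Fezf2, Dlx2, Aqp4 and S100b. Some genes that this rule selects are not reported here. Isoforms were not analysed here.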

Additional observations from a re-analysis of the deposited data

How the results depend on the processing

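Bdnf, Ntrk2 and Ntrk3 kept their direction and passed the threshold under each scaling, with no filter, by DESeq2, without the 20 most abundant genes, with the replicate block and without any single library. Without single libraries, the log2 fold-change ran from -0.498 to -0.402 for Bdnf, from 0.162 to 0.179 for Ntrk2 and from -0.175 to -0.110 for Ntrk3. The exceptions were a required fold change above 1.2 and, for Bdnf, the stricter filter. A fold change above 1.2 left 0 members lower and 0 higher (Bdnf -0.444, adjusted P 0.0975; Ntrk2 0.168 and Ntrk3 -0.133, adjusted P 1 for each, by edgeR's glmTreat). It also left 1340 lower and 883 higher genes, 2223 in all, 20 lower and 2 higher pathway genes and 18 higher cell-type markers. The stricter filter removed Bdnf, Ntf3 and Ngfr and so left 1 member lower. It moved the median of the BDNF-responsive transcripts to -0.304 and that of the other family genes to -0.147. Sort1 passed the threshold, making 2 members higher, with upper-quartile factors (0.0817) and library totals (0.099). Under these, Mterf4 stood at 0.00464 and 0.0219, and the median of the other family genes at 0.00487 and 0.0221, above 0 in place of below. Ngfr stood at 0.0082 with library totals.

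Leaving out single libraries gave 1 to 2 members called higher, with Sort1 from 0.0571 to 0.0929 (called without Fmr1-KO replicate 2). Ntf3 ran from -0.191 to 0.0463 and turned without WT replicate 1. Ngfr ran from -0.170 to 0.0816 and turned without WT replicate 2, Fmr1-KO replicate 1 or Fmr1-KO replicate 2. Among the profile neighbours, Wscd2 ran from -0.133 to 0.0347, Matn2 from -0.137 to 0.0307, Mterf4 from -0.0792 to 0.0352 and Vamp4 from -0.0894 to 0.00903. The medians ran from -0.0328 to 0.0250 for the other family genes, from -0.0173 to 0.00715 for p75 partners and from -0.00736 to 0.0348 for Bdnf regulators. The difference in log2 ratio ran from -0.229 to 0.0081 for Ngfr to Sort1, from -0.483 to -0.229 for Bdnf to Ntf3 and from -0.338 to -0.102 for Ngfr to Ntrk2. The cause of these changes was not tested. Per kilobase of the longest transcript, WT levels were 1.211 CPM for Bdnf, 1.974 for Ntf3, 92.33 for Ntrk2, 6.828 for Ntrk3 and 35.09 for Sort1.

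Deviations of same-numbered samples correlated at -0.0289, 0.0323 and -0.0147, so the numbers were not taken as pairing. With the replicate block, 7182 genes were called, and 2 members were lower and 1 was higher, with Bdnf at -0.446, Ntrk2 at 0.168, Ntrk3 at -0.1335 and Sort1 at 0.0709.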
